A study of Homo sapiens with 28 samples.

Results

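On the 22 autosomes, 404 of 287415 windows of 10 kb, or 0.141%, lay at least 50% under H3K36me2 peaks in cells expressing wild type NSD2 and less than 50% under them in each of the 3 other cell groups. Windows were counted from position 0 of each chromosome, and peaks less than 1 kb apart were joined first. Of the 404 windows, 234 lay inside shared blocks, which are 1 Mb blocks in which each of the 12 deposited peak lists covers at least 10% of the bases, and 170 lay outside them. These were 2.51% of the 9321 windows inside the 94 shared blocks and 0.0611% of the 278094 windows outside. The H3K36me2 coverage itself chose the windows, so their H3K36me2 values are a description and carry no test. H3K27me3, H3K27ac, gene content and sequence were not used in the choice of the windows. The shared blocks, however, were defined on the H3K27me3 and H3K27ac lists too. Higher coverage by these marks inside the blocks than outside is therefore partly set by that definition.

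The 3 histone marks H3K36me2, H3K27me3 and H3K27ac were mapped by ChIPmentation, a chromatin immunoprecipitation in which a transposase inserts the sequencing adapters. TKO cells derive from the KMS-11 myeloma line, carry the genotype label WHSC1(+/-), with NSD2 under its former name, and are labelled as plasma cells. The 4 groups are TKO cells and TKO cells expressing wild type (WT), D1240A or F1295A NSD2, so each group shares that line and genotype, and how the forms were expressed and whether a group is 1 clone are not given in the sources used here. Each group and mark had 2 replicates, with 4 inputs in 28 samples, but each deposited peak list was called on both replicates together, so there is no replicate error and no significance test anywhere below. H3K27ac peaks stood at an end of 6 of 8 plasma cell marker genes in every list (IRF4, JCHAIN, PRDM1, SLAMF7, TNFRSF17 and XBP1, not SDC1 or CD38) and of 1 of 8 genes of other cell types, the T cell gene CD3E. Between 62550152 and 69211726 fragments were kept for H3K36me2 and between 31097592 and 44812488 for H3K27me3, and WT had the fewest for H3K36me2 and the most for H3K27me3. The WT H3K36me2 list is also the shortest, with 71039 autosomal peaks over 72.1 Mb against 98114 to 118368 peaks over 76.6 to 93.9 Mb. NSD2 itself is listed at 0% under H3K36me2 and H3K27me3 peaks in each group, which says nothing about its expression.

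NSD2 is a histone methyltransferase that places 2 methyl groups on lysine 36 of histone H3, a mark that spreads over broad domains within and between genes. H3K27me3 is placed by Polycomb repressive complex 2 and marks silent genes and domains, and H3K36 methylation hinders that complex on the same histone tail. H3K27ac marks active promoters and enhancers. Centromeres and the regions beside them are built from repeated satellite DNA and hold few genes, and repeated copies of a sequence are hard to tell apart with short reads.

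Promoter sequences in the RefSeq table of GRCh38.p14 run from 250 bases before to 50 bases after a gene start, and 13 of them touched the windows. The 4 printed here are all outside the shared blocks, and none stands for the windows far from genes. The first 3 belong to olfactory receptor genes, which encode odorant receptors of sensory neurons, and are printed because their promoters held bases under a WT H3K36me2 peak alone, with capitals for the bases under a WT peak and under no H3K36me2 peak of TKO, D1240A or F1295A. The fourth, of FAM230E, a noncoding RNA gene, is printed because it is repeated, with capitals for the bases within any stretch of 31 bases that also occurs in the promoter of another gene.
OR2A42: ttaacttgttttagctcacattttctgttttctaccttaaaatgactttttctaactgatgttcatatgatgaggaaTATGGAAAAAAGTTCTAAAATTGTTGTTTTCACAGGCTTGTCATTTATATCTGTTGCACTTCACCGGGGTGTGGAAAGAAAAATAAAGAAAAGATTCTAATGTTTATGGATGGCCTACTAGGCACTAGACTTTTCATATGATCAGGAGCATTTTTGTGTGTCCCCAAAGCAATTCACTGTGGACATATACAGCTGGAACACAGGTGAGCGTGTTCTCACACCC
OR10K2: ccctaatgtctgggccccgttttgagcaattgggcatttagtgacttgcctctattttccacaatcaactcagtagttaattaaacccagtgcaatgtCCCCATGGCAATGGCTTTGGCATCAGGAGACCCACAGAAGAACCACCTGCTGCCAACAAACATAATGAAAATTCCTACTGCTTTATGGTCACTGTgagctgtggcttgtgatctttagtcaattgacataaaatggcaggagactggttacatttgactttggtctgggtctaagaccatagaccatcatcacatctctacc
OR6P1: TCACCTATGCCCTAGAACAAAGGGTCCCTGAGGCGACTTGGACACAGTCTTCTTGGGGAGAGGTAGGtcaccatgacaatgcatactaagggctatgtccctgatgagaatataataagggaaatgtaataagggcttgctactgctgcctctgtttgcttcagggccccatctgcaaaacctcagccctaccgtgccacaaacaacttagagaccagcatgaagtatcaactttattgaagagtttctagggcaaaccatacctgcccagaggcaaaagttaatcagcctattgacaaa
FAM230E: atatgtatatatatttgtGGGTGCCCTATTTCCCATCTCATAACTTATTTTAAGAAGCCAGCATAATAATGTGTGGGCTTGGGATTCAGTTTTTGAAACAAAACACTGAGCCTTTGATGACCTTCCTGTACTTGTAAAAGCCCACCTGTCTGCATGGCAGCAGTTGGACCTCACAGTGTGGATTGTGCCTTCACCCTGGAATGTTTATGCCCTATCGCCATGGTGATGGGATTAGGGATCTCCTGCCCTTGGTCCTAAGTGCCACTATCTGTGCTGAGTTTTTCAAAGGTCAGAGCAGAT
The OR2A42 promoter (chr7:144239556-144239855, minus strand) was under peaks over 100% of its bases in WT, 25.7% in F1295A and 0% in TKO and D1240A, which leaves 223 bases in capitals. The OR10K2 promoter (chr1:158426188-158426487, minus strand) was covered over 67.3% in WT, 35.7% in TKO and 0% in both mutants, with 95 bases in capitals. Not every olfactory receptor promoter in the windows had this order. That of OR10X1 was covered over 51.7% in WT, 100% in TKO and F1295A and 0% in D1240A, and that of OR10K1 over 91.3% in D1240A and 0% in the other lists. Over the OR6P1 promoter (chr1:158570531-158570830, minus strand) the WT peak reached 67 bases and the other lists had none. Among the 13 promoters this was the only one with a peak in the WT list alone, against 54 of all 33725 autosomal promoters (0.160%). The same H3K36me2 lists chose the windows, which favours such a peak, so this comparison carries no test. The FAM230E promoter (chr22:18733685-18733984, plus strand) was covered over 100% in each of the 4 H3K36me2 lists and also in all H3K27me3 and H3K27ac lists. Its 282 bases in capitals are shared, among other genes, with FAM230G, with which it has 251 of its 270 stretches of 31 bases in common. At least 50% of such stretches recurred in another gene for 3 of the 13 promoters (23.1%), FAM230E, LOC124901638 and LOC124901639, against 14.8% of all autosomal promoters, a share that includes promoters of neighbouring genes that overlap.

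H3K36me2 coverage in the windows was partial in every group, and the WT value stood above the others by a modest margin. Inside the shared blocks the mean coverage was 62.1% in WT (SD over windows 9.74), 36.1% in TKO (10.5), 35.3% in D1240A (10.9) and 31.6% in F1295A (11.3). Outside them the means were 61.3% in WT (10.9), 27.4% in TKO (14.2), 30.8% in D1240A (12.8) and 29.3% in F1295A (12.5). In none of the 404 windows were the 3 other lists all at 0, and the list with the highest value among them was D1240A in 155 windows, TKO in 139 and F1295A in 110. The gap from WT to that list had a median of 19.9 percentage points and reached at least 25 points in 136 windows, 67 inside and 69 outside the shared blocks. It was under 10 points in 55 windows. WT coverage was below 60% in 214 windows and at least 75% in 50. Of the other window sets chosen in the same way, 938 were covered in TKO alone, 701 in F1295A alone and 65 in D1240A alone, while 5308 were covered in all 4 groups.

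**Figure D1:**
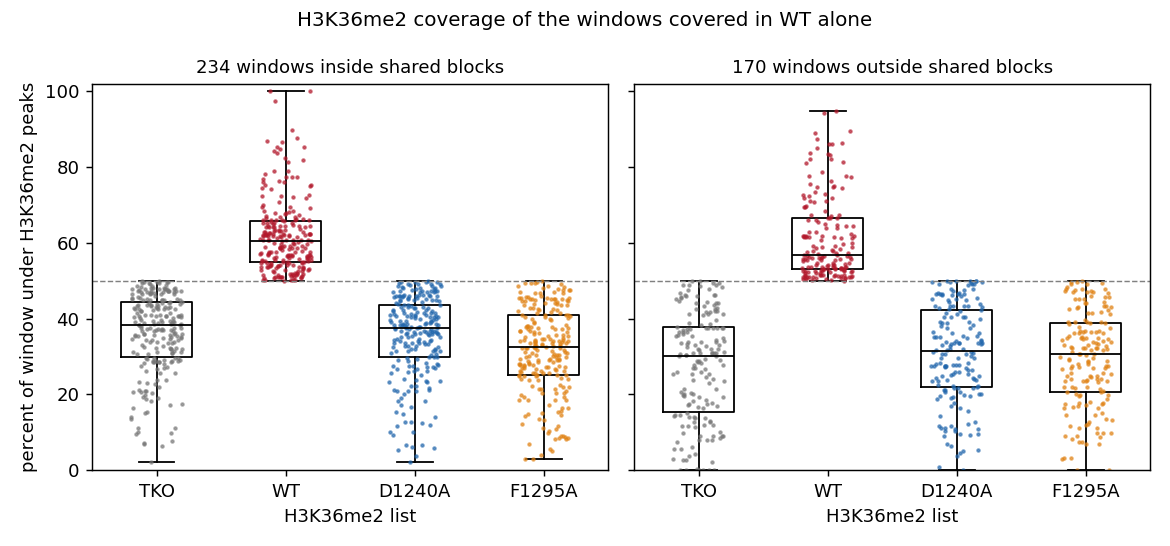
Percent of each window under H3K36me2 peaks (vertical axis) in the 4 lists, for 234 windows inside and 170 outside the shared blocks. Points are windows, boxes show quartiles and median, whiskers the whole range, and the dashed line is the 50% limit of the choice, so WT lies above and the other lists below it by construction.

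The limit of 50% passed through a dense part of the distribution. The windows nearest above it in WT were on chromosome 3 from 90970001 (50.01% in WT, 49.3% in TKO), on chromosome 2 from 79100001 (50.02%, with 24.0% in D1240A as the highest other) and on chromosome 20 from 27470001 (50.1%, with 40.8% in TKO). Just below it were a window on chromosome 1 from 151950001 (WT 49.99%) and 2 on chromosome 8, from 45370001 (49.98%) and 128450001 (49.91%). On the other limit, windows on chromosome 20 from 29500001 and on chromosome 3 from 91770001 and 93590001 had 49.97%, 49.96% and 49.96% in D1240A and were kept. Windows on chromosome 19 from 25880001, chromosome 15 from 19310001 and chromosome 13 from 17590001, at 50%, 50.01% and 50.02% in TKO, were not. In all, 127 windows had WT coverage of 50 to under 55% and 170 were missed with WT at 45 to under 50%. Likewise 150 had a highest other list at 45 to under 50%, and 220 were missed with one at 50 to under 55%. The counts inside and outside the shared blocks depended on the limits and on the merging: with peaks merged within 3 kb they were 86 and 341 in place of 234 and 170, and with limits of 75% in WT and 25% in the others 1 window was left.

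The 3 windows outside the shared blocks with the largest gap all lay on chromosome 3. From 93540001 the coverage was 94.3% in WT, 24.0% in TKO, 22.2% in D1240A and 23.6% in F1295A, a gap of 70.3 points, with 9 peaks in WT and 3 to 5 in the others. From 92590001 it was 86.1% in WT against 30.1%, 29.6% and 20.1%, and from 92400001 it was 74.8% against 14.7%, 18.8% and 20.5%. The smallest gaps outside the blocks were 1.13 points on chromosome 3 from 116360001, within LSAMP, a neuronal adhesion gene, 1.48 points on chromosome 15 from 70730001, within UACA, and 2.34 points on chromosome 4 from 136290001. In these 3 windows WT and the next list differ by at most 2.34 points.

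Single peaks in the windows were mostly higher in WT. The same H3K36me2 peaks chose the windows. Higher, longer and more WT peaks are therefore favoured by the choice and carry no test. The highest summit in a window had a median pileup, the number of overlapping fragments, of 51 in WT, 43 in TKO, 40 in D1240A and 37.5 in F1295A inside the shared blocks. Outside them the medians were 34 in WT and 27 in each of the others. The smallest pileup in each of these lists is 14. Among the 404 windows the highest WT summit was above that of TKO in 330, of D1240A in 342 and of F1295A in 340, and below it in 59, 53 and 58. A window held a median of 6 WT peaks and 4 in each other list. The longest peak touching a window had a median length of 2136 bases in WT and 1222.5 to 1448.5 in the others inside the blocks. Pileup is not scaled for depth, and the WT list has the fewest kept fragments of the 4.

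The windows were unevenly spread over the genome. Chromosome 3 held 77, chromosome 18 held 43, all inside shared blocks, chromosome 1 held 42 and chromosome 15 held 28, while chromosome 6 held 1. All 9 windows of chromosome 17 lay outside shared blocks. Of the 404 windows, 299 stood alone and the rest formed runs of at most 6 adjacent windows. Joining windows up to 1 Mb apart gave 84 stretches. The nearest protein-coding gene was over 500 kb away for 245 windows, 181 inside and 64 outside the shared blocks.

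**Figure D2:**
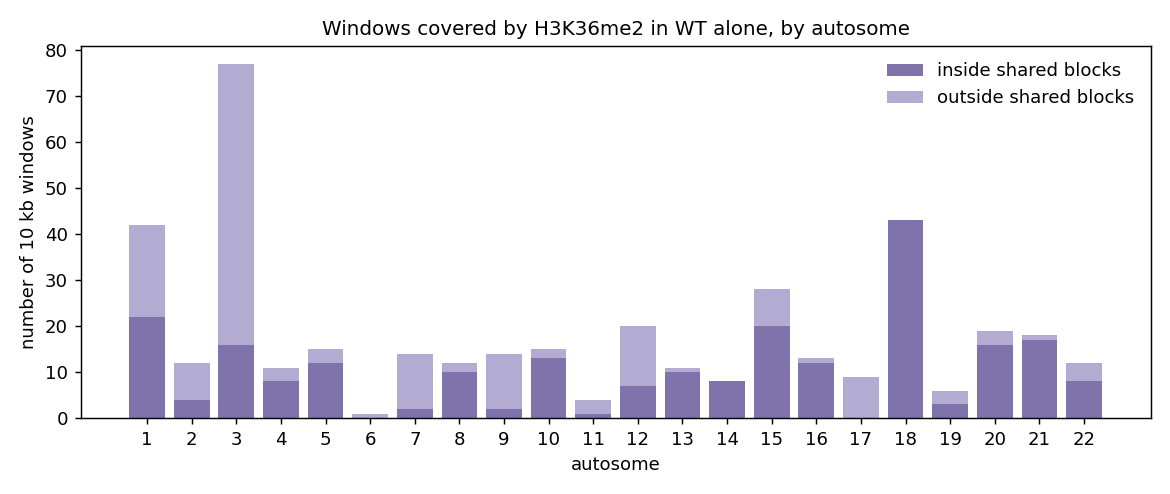
Number of windows covered in WT alone (vertical axis) on each autosome (horizontal axis), stacked by position inside or outside shared blocks. Chromosome 3 has 77 windows, 61 of them outside shared blocks, and chromosome 18 has 43, all inside.

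The largest group was a stretch of 76 windows on chromosome 3, from 90970001 to 93640000, which spans the region where this build places the centromere. None of its windows touched a gene. The 16 windows inside the shared blocks averaged 64.1% in WT, 38.1% in TKO, 38.0% in D1240A and 31.4% in F1295A, and the 60 outside averaged 67.7%, 31.02%, 35.4% and 25.3%. Over all 267 windows of the stretch, which include the chosen ones, mean H3K36me2 coverage was 59.3% in WT, 36.2% in TKO, 41.5% in D1240A and 31.6% in F1295A. At least 50% was reached by 186 of them in WT, 68 in TKO, 95 in D1240A and 46 in F1295A, where 2.36%, 2.83%, 2.37% and 2.72% of all autosomal windows passed, and 21 windows had no H3K36me2 peak in any list. The 191 windows of the stretch that were not chosen averaged 56.2% in WT, 37.7% in TKO, 43.7% in D1240A and 33.6% in F1295A. The lists were called with no control and the inputs were not used here, so the number of copies of this region in each group was not compared. H3K27me3 averaged 59.6%, 57.5%, 55.3% and 58.3% over the 267 windows in TKO, WT, D1240A and F1295A. The longest runs outside shared blocks, of 6 windows from 92780001 to 92840000 and of 4 windows each from 92500001 and 93000001, are all in this stretch, with mean WT coverage of 67.9%, 67.5% and 67.0% and at most 42.7% in any other list. Of those of 3 windows there, that from 93520001 had 70.1% in WT and 22.3 to 24.0% in the others, and that from 93180001 had 70.1% in WT and 28.4 to 39.7%.

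**Figure D3:**
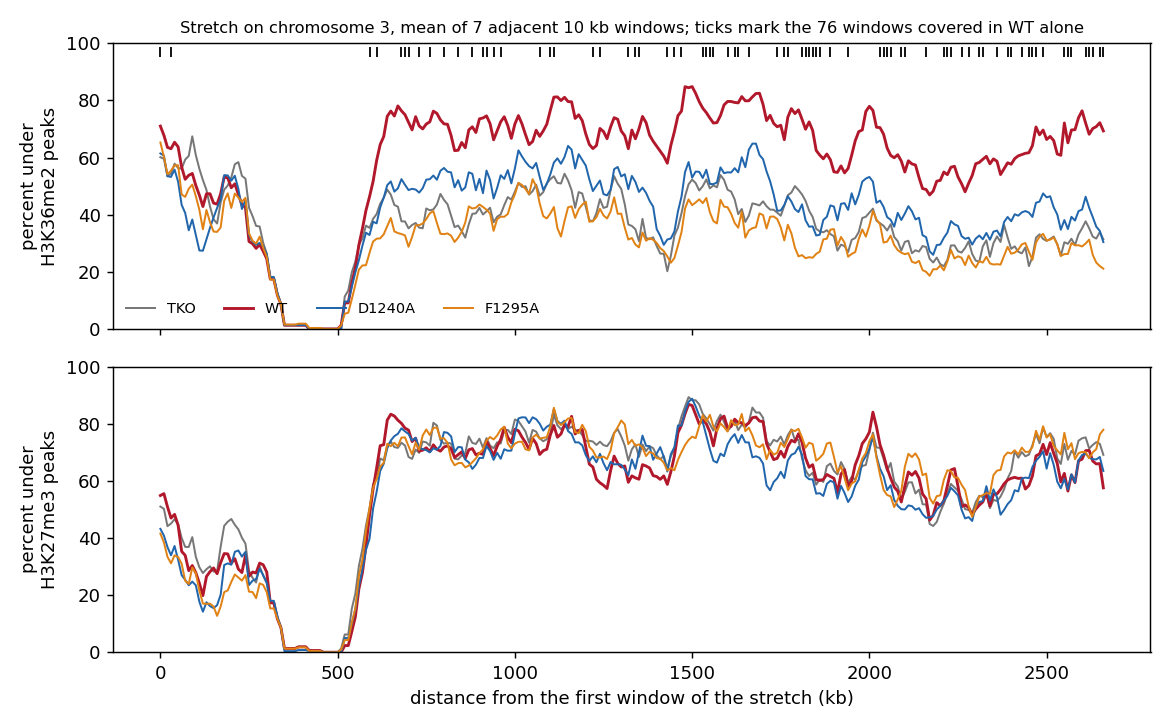
H3K36me2 (upper panel) and H3K27me3 (lower panel) coverage along the stretch on chromosome 3, as a mean over 7 adjacent windows in percent, against the distance from its first window in kb, in the 4 lists. Ticks mark the 76 windows covered in WT alone. The WT line is above the others in H3K36me2 beyond about 600 kb, and the 4 lines run close together in H3K27me3.

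Other stretches whose chosen windows touched no gene differed in how far WT stood above the rest. On chromosome 18, 43 windows from 15660001 to 20650000 averaged 64.7% in WT, 39.0% in TKO, 37.9% in D1240A and 32.5% in F1295A, but over all 499 windows of the stretch the means were 81.4%, 68.1%, 69.2% and 60.3%, so that most of it was covered in each group. The same held on chromosome 21 from 11160001 to 12780000 (17 chosen of 162 windows, means over all 79.2% in WT, 67.3%, 66.7% and 62.4% in TKO, D1240A and F1295A). On chromosome 20 from 26670001 to 29510000, with 18 chosen of 284 windows, the means over all were 56.0%, 53.2%, 51.9% and 48.4% in the same order. Chromosome 15 from 18360001 to 20370000 held 21 chosen of 201 windows, and the means over all were 47.4% in WT, 40.1% in TKO, 36.1% in D1240A and 27.5% in F1295A, with 112, 86, 69 and 30 windows at least 50% covered. Chromosome 10 from 39630001 to 41380000 held 14 of 175, with 44.0% in WT and 37.0 to 38.4% in the others over all. The longest runs inside the shared blocks were of 4 windows on chromosome 18 from 18540001 (54.95% in WT, 33.7 to 39.0% in the others) and of 3 windows on chromosomes 3, 14, 15, 18 and 22. The run on chromosome 14 from 16410001 had the widest gap of these, with 62.1% in WT and 19.1 to 22.3% in the others.

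In several stretches that contain genes, though not in all, F1295A came next to WT in the chosen windows. The 2 of them with the most chosen windows are described first. On chromosome 12 from 57910001 to 58780000, the mean of 12 windows was 57.9% in WT, 33.0% in F1295A, 20.6% in D1240A and 10.1% in TKO, and 3 of the windows, from 58140001, 58220001 and 58770001, had no TKO peak at all while WT covered 52.2%, 56.5% and 51.6%. Over all 87 windows of this stretch, however, F1295A covered the most (50.5%, against 41.0% in WT, 25.7% in D1240A and 18.3% in TKO). Its noncoding genes include LINC02388, covered over 30.8% of its body in WT, 36.2% in F1295A, 14.2% in D1240A and 7.0% in TKO. On chromosome 1 from 157380001 to 159760000, which spans FCRL and olfactory receptor genes, the mean of 17 windows was 60.1% in WT, 37.3% in F1295A, 28.4% in D1240A and 28.1% in TKO, and over all 238 windows F1295A again covered the most, 32.8% against 27.2% in WT. A stretch on chromosome 5 from 69730001 to 70710000 also contains genes. There 5 of 12 windows touched noncoding genes or pseudogenes such as GUSBP14 and none a protein-coding gene, and their mean was 59.2% in WT, 24.5% in TKO, 23.4% in D1240A and 20.1% in F1295A. Over all 98 windows of it the means were 48.4%, 43.7%, 40.2% and 37.0%, and the 86 windows not chosen had 46.9% in WT and 46.3% in TKO.

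The order of the other 3 groups changed with the distance to genes. In the 245 windows over 500 kb from a protein-coding gene, mean H3K36me2 was 63.0% in WT, 37.2% in TKO, 37.0% in D1240A and 30.7% in F1295A, so F1295A was lowest. In the 34 windows that touched a protein-coding gene it was 57.0% in WT, 34.3% in F1295A, 25.5% in D1240A and 24.4% in TKO. The 125 windows between these classes had 60.5% in WT and 25.4 to 29.4% in the others. Distance was mixed with place, since 181 of the 245 windows but 8 of the 34 lay inside the shared blocks. Over 500 kb away, TKO, D1240A and F1295A had 38.7%, 37.3% and 31.5% inside and 32.7%, 36.1% and 28.7% outside. In windows touching a protein-coding gene they had 27.5%, 27.0% and 39.4% inside and 23.4%, 25.1% and 32.7% outside. These classes were set after values had been seen.

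**Figure D4:**
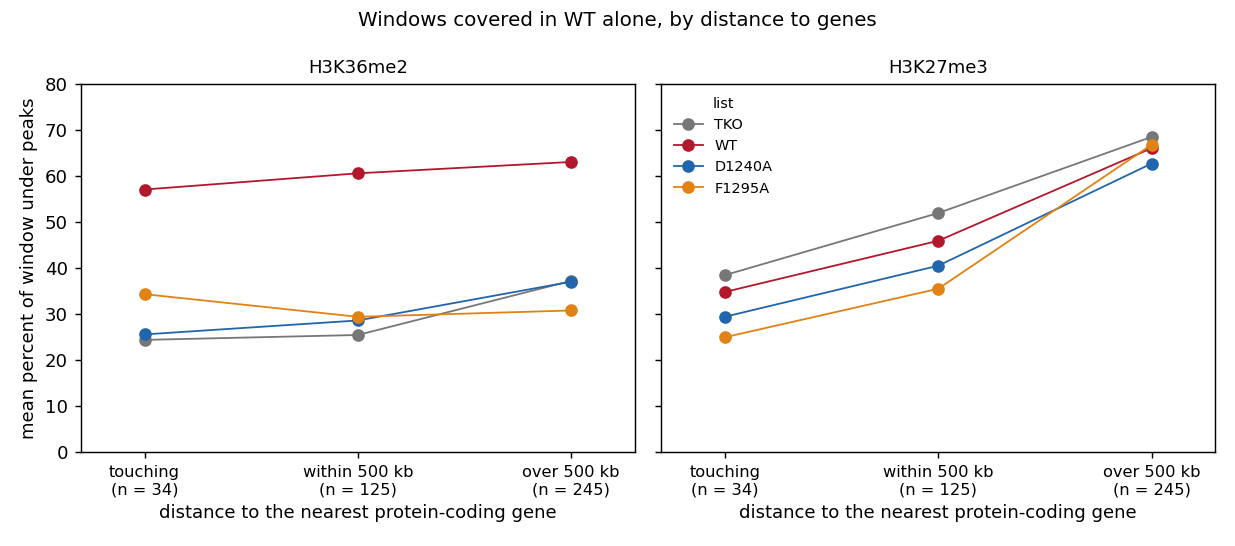
Mean coverage by H3K36me2 (left) and H3K27me3 (right) peaks in percent of the window, in the 4 lists, for windows touching a protein-coding gene (n = 34), within 500 kb of one (n = 125) or farther away (n = 245). Lines join the means of a list, over windows inside and outside the shared blocks together. F1295A is the second highest H3K36me2 list in windows touching a gene and the lowest in those farther than 500 kb from one, and H3K27me3 is higher away from genes in each list.

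In each H3K27me3 list at least 60.1% of the 404 windows were at least 50% under peaks of this Polycomb mark. In all 4 lists 189 were so (46.8%), against 1.93% of all autosomal windows. Inside the shared blocks at least 50% of the window was under H3K27me3 peaks in 195 of 234 windows in TKO (83.3%, where 62.6% of all windows inside the blocks passed), 181 in WT (77.4%, of all 61.1%), 160 in D1240A (68.4%, of all 57.4%) and 166 in F1295A (70.9%, of all 56.3%). Outside them the counts were 98 of 170 in TKO (57.6%, exact binomial 95% interval 49.8 to 65.2%, where 0.35% of all windows passed) and 95 in WT (55.9%, 48.1 to 63.5%, of all 0.335%). D1240A had 83 (48.8%, 41.1 to 56.6%, of all 0.26%) and F1295A had 79 (46.5%, 38.8 to 54.3%, of all 0.288%). The order TKO, WT and then the mutants was also that of all windows, and the WT and TKO lists rest on more H3K27me3 fragments (44812488 and 41788534) than D1240A (33219802) and F1295A (31097592), whose part in the order was not tested. The intervals cover counting error only, and adjacent windows are not independent. Over all 404 windows the share was 72.5% in TKO and 68.3% in WT, and with peaks merged within 3 kb it was 43.6% and 35.1%.

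Other window sets chosen on H3K36me2 serve as a yardstick, with no test of the difference. Inside the shared blocks no H3K27me3 list reached 50% in 7.69% of the 234 windows covered in WT alone. That share was 27.6% of 214 in F1295A alone, 35.7% of 14 in D1240A alone, 55.8% of 77 in TKO alone and 8.20% in all 4 groups. Outside them it was 31.2% of the 170 in WT alone and 82.4% of 51 in D1240A alone. Outside the shared blocks 13 of 861 windows covered in TKO alone were at least 50% under H3K27me3 peaks in TKO (1.51%), and 18 of 487 covered in F1295A alone were so in F1295A (3.70%). Among the 465 windows there that all 4 groups covered, the share was 57.0 to 65.8% over the 4 H3K27me3 lists. H3K27ac coverage of that extent was rare in the windows. Inside the shared blocks it was reached by 3 of 234 windows in WT, 4 in TKO, 4 in D1240A and 14 in F1295A, where 46.1%, 48.5%, 43.8% and 52.7% of all windows passed. Outside the shared blocks at least 50% of the window was under H3K27ac peaks in none of the 170 windows in WT and in 3, 1 and 2 in TKO, D1240A and F1295A, where 1.1%, 1.35%, 1.32% and 1.28% of all windows passed in these lists. In windows covered in TKO alone it was 318 of 861 in the TKO list (36.9%), and in those covered in all 4 groups 66.5% in WT.

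**Figure D5:**
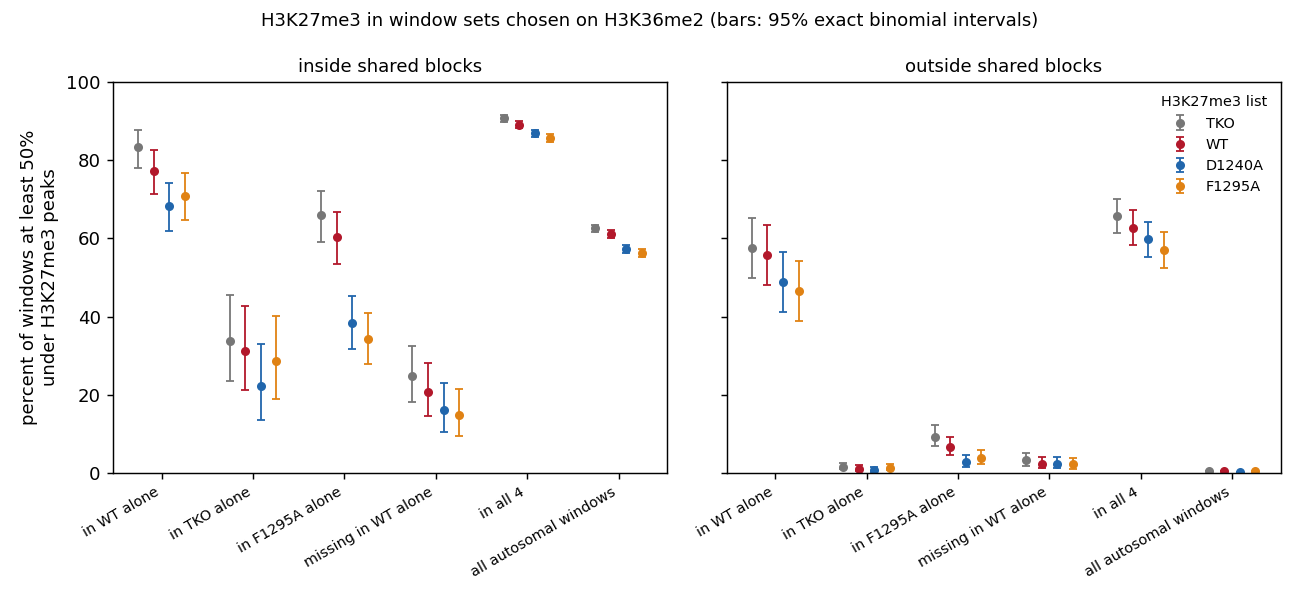
Percent of windows at least 50% under H3K27me3 peaks (vertical axis) in the 4 H3K27me3 lists, for window sets chosen on H3K36me2 and for all windows, inside (left) and outside (right) the shared blocks. Points are shares and bars 95% exact binomial intervals. On the right, windows covered in WT alone stand at 46.5 to 57.6%, near those covered in all 4 groups and far above those covered in TKO or F1295A alone.

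Between WT and TKO the H3K27me3 level moved by under 25 points in most windows. In WT the mean was 63.8% inside and 48.01% outside the shared blocks, against 67.8% and 51.1% in TKO, a mean difference of -4.07 and -3.09 points. A rise of at least 25 points in WT was seen in 9 of 234 windows inside (3.85%, of all 1.57%) and 4 of 170 outside (2.35%, of all 0.0863%), and a fall of that size in 22 (9.40%, of all 3.53%) and 15 (8.82%, of all 0.105%). The windows had more H3K27me3 than all windows on average, and the shares over all windows are not matched to them in level. Windows covered by H3K36me2 in all 4 groups, with more H3K27me3 on average, rose by at least 25 points in 0.805% inside and 1.29% outside. They fell by that size in 3.24% and 6.45%. In the windows covered in WT alone, all 4 lists were at least 50% under H3K27me3 in 132 windows inside (56.4%) and 57 outside (33.5%). The inside share was near that of all windows there, 53.7%, while outside 0.193% of all windows passed. In windows covered by H3K36me2 in all 4 groups it was higher, 84.5% inside and 53.3% outside. None of the lists was so in 18 windows inside (7.69%, of all 35.0%) and 53 outside (31.2%, of all 99.5%).

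H3K27me3 depended on the place. In the chromosome 3 stretch 69 of 76 windows were at least 50% under H3K27me3 in TKO, with 66 for WT, 55 for D1240A and 63 for F1295A, and on chromosome 18 it was 42, 42, 40 and 40 of 43. Without the chromosome 3 stretch, the 110 remaining windows outside shared blocks had 43, 43, 39 and 29 in the same order. The chromosome 12 stretch had mean H3K27me3 coverage of 18.05% in WT, 18.7% in TKO, 15.6% in D1240A and 8.0% in F1295A. On chromosome 9, the 12 windows outside shared blocks averaged 26.6% for TKO and 22.1% for WT, with 18.7% and 17.1% for D1240A and F1295A. Of these 12 windows, 10 were under 50% in every list. With the lists again taken as TKO, WT, D1240A and F1295A, windows touching a protein-coding gene averaged 38.4%, 34.8%, 29.4% and 24.9%. Those over 500 kb from one averaged 68.4%, 66.0%, 62.6% and 66.7% in that order.

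In the chromosome 5 stretch H3K27me3 was lower in WT than in TKO. Its mean over 12 windows was 55.01% in TKO, 38.4% in D1240A, 24.9% in F1295A and 23.5% in WT. At least 50% was reached by 9 of the 12 windows in TKO, 3 in D1240A and none in WT or F1295A. From 70340001 the H3K27me3 coverage was 17.97% in WT, 79.95% in TKO, 33.2% in D1240A and 27.1% in F1295A, while H3K36me2 there was 61.9%, 25.6%, 29.5% and 8.6%. Both marks were low there in F1295A. Over all 98 windows of the stretch H3K27me3 averaged 37.9%, 21.8%, 29.8% and 23.6% in TKO, WT, D1240A and F1295A. A stretch on chromosome 16 from 32030001 to 34180000, with HERC2P5 and IGHV1OR16-1 among its pseudogenes, had 46.4% in WT, 58.4% in TKO, 27.5% in D1240A and 28.5% in F1295A over its 12 chosen windows, and over all 215 windows 24.1%, 30.7%, 17.99% and 16.1% in the same order. On chromosome 1 from 157380001 the mean was 47.0% in WT, 43.1% in TKO, 26.8% in D1240A and 16.4% in F1295A over the 17 chosen windows. Over all 238 windows there TKO was above WT, with 30.1% against 28.0%, and D1240A and F1295A had 15.95% and 11.4%. These places were picked after their values were seen.

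Few genes lay in the windows. A protein-coding gene was touched by 8 of 234 windows inside the shared blocks (3.42%, exact binomial 95% interval 1.49 to 6.63%) and 26 of 170 outside (15.3%, 10.2 to 21.6%), against 16.7% and 47.3% of all windows. In windows covered in TKO alone the share outside the blocks was 59.0%. Closer to the chosen windows were all windows covered in WT, which include them, with 25.9% outside and 14.4% inside. Windows covered in all 4 groups had 34.4% and 15.1%. Of the 170 chosen windows outside, 60 lie in the chromosome 3 stretch, where none touched a gene. Any gene was touched by 22 windows inside (9.40%) and 51 outside (30%), against 27.7% and 65.3%. In total 93 genes were touched, of which 34 were protein-coding (0.179% of 18969), 26 long noncoding RNAs, 21 pseudogenes and 8 transcribed pseudogenes. Pseudogenes were touched by 10 of the 234 windows inside (4.27%, 2.07 to 7.72%), against 8.49% of all there. Outside they were touched by 16 of the 170 windows (9.41%, 5.48 to 14.8%), against 6.25% of all. Outside, this was below the share in all windows covered in WT (17.6%) and in those covered in all 4 groups (19.4%).

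Members of multi-copy families made up 11 of the 34 protein-coding genes (32.4%, 17.4 to 50.5%), against 1601 of 18969 autosomal protein-coding genes (8.44%), as judged by symbol. Inside the shared blocks they were 1 of 7 (14.3%, 0.36 to 57.9%) and outside 10 of 27 (37.0%, 19.4 to 57.6%). These intervals treat genes as independent, but OR10K2, OR10K1, OR6P1 and OR10X1 are neighbours in 1 stretch of chromosome 1. The share of all touched genes was 17.1% with peaks merged within 3 kb, 60% without merging and 66.7% in 20 kb windows. Of the 11 genes, 8 were olfactory receptors, all outside the shared blocks, of 388 in the annotation. They are OR4F5, OR10K2, OR10K1, OR6P1 and OR10X1 on chromosome 1, OR9A4 and OR2A42 on chromosome 7 and OR6C74 on chromosome 12. The others were LCE1A, a late cornified envelope gene of the epidermis, ANKRD20A1, an ankyrin repeat gene, and SPDYE10 of the Speedy family. The other families, among them golgin-like, NBPF, TBC1D3 and PRAME genes, had no protein-coding member touched, although GOLGA8DP and GOLGA2P10, pseudogenes of golgins, were. OR10K2, OR10K1, OR6P1 and OR10X1 lay in the windows with 100% of their body and OR2A42 with 84.5%, while OR9A4 had 14.8% there and no peak on its body.

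OR10K1 (chr1:158461834-158467458) was covered by H3K36me2 over 55.2% of its body in WT, 15.9% in F1295A, 14.01% in TKO and 5.0% in D1240A. OR10K2 (chr1:158418210-158426237) had 47.5% in WT, 30.1% in F1295A, 26.7% in TKO and 24.7% in D1240A. The window from 158410001, which it shares with its neighbourhood, stood at 83.4% in WT, 34.8% in F1295A, 25.9% in D1240A and 12.6% in TKO, on peaks of at most 23 fragments in WT and 20 to 24 in the others. OR6P1 (chr1:158560606-158570580) had 50.7% in WT and 45.2% in F1295A against 30.9% in TKO and 30.7% in D1240A, so WT and F1295A were close. OR10X1, of 981 bases, had 79.3%, 57.6%, 56.6% and 35.6% in WT, D1240A, F1295A and TKO.

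OR2A42 (chr7:144228244-144239605), whose promoter is printed above, had 40.8% of its body covered in WT, 26.1% in F1295A, 17.8% in TKO and 4.0% in D1240A. In the window from 144240001, beside its start, coverage was 89.4% in WT, 47.3% in D1240A, 44.1% in F1295A and 38.3% in TKO. Its H3K27me3 coverage was 35.5% in TKO, 34.9% in WT, 6.6% in F1295A and 0% in D1240A. OR6C74 (chr12:55244609-55256625) had 38.2% in WT and 34.6% in F1295A, 10.4% in D1240A and 4.2% in TKO. OR4F5 (chr1:65419-71585), which lies near the end of chromosome 1, had 43.3% in WT and 10.6 to 19.8% in the others. The small predicted genes LOC124901639 and LOC124901638 on chromosome 7 lie in 1 window. LOC124901639 was covered over 100% in WT and D1240A and listed at 0% in TKO and F1295A, and LOC124901638 over 31.4% in D1240A, 18.9% in WT, 18.3% in F1295A and 15.1% in TKO.

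Within 500 kb of the end of a chromosome there were 10 windows, all outside the shared blocks, with mean H3K36me2 coverage of 61.2% in WT, 30.7% in TKO, 26.6% in D1240A and 20.3% in F1295A. They lie on chromosomes 1, 8, 9, 11 and 19, and the annotated genes nearest to them include OR4F5, OR4F2P and OR4F8P, copies of the OR4F receptors at chromosome ends, and SEPTIN14 pseudogenes. Mean H3K27me3 coverage of them was 61.4% in WT, 72.1% in TKO, 71.8% in D1240A and 62.3% in F1295A. On chromosome 19 the window from 130001 had 81.0% H3K36me2 in WT and 27.3 to 34.2% in the others.

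Inside the shared blocks 5 protein-coding genes had at least 25% of their body in the windows. FCRL3 (chr1:157676481-157700956), an Fc receptor-like gene of B cells, had 48.5% of its body under H3K36me2 in WT, 53.7% in F1295A, 31.02% in D1240A and 23.3% in TKO, so over the whole gene F1295A was above WT. FCRL1 (chr1:157794403-157820120), another Fc receptor-like gene of B cells, had 67.3% in WT, 63.0% in F1295A, 41.2% in TKO and 30.5% in D1240A. H3K27me3 over FCRL3 was 47.1% in WT, 39.4% in TKO, 10.9% in F1295A and 9.6% in D1240A, and over FCRL1 39.4%, 47.9%, 12.98% and 18.4%. THEM4, a thioesterase gene, had 71.8% H3K36me2 in WT, 74.8% in F1295A, 62.9% in TKO and 62.2% in D1240A. LOC124904394 had 34.5 to 37.7% in the 4 lists, and LCE1A is listed at 0% in each, its window being covered beside the gene. FCRL3 and FCRL1 were 2 of 15 genes of the Fc receptor-like and Fc gamma receptor list. No gene was touched of the other 8 lists, which hold 25 epidermal differentiation and S100A genes (without LCE1A), 9 SLAM receptors, 5 CD1 genes, 4 interferon-inducible genes of chromosome 1, 40 cell adhesion genes, 16 plasma cell genes, 6 genes of NSD2 and its myeloma translocation and 11 Polycomb and H3K36 enzymes. Of all autosomal protein-coding genes only 0.179% were touched, so an untouched list of this size does not show that its genes were spared.

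The remaining protein-coding genes held less than 25% of their body in the windows and showed no common order of the groups over the whole gene. GJA5, a gap junction gene, had 56.2% in F1295A, 55.6% in D1240A, 40.9% in WT and 22.9% in TKO. SRGAP2, a gene of neuronal migration, was lowest in WT, with 50.95% against 68.9% in TKO, 66.8% in F1295A and 61.4% in D1240A. NEB, the nebulin gene of muscle, had 9.3% in WT, 10.5% in F1295A, 6.7% in D1240A and 4.2% in TKO, and LSAMP had 0.6 to 0.9%. Short noncoding features were touched as well. IGHV1OR16-1, an immunoglobulin heavy chain pseudogene on chromosome 16, PTGER4P3, a prostaglandin receptor pseudogene on chromosome 9, and LOC100507393 on chromosome 7 were covered over 100% in WT and over 0%, 0% and 0.7% in TKO. The first was listed at 0% in both mutants too. PTGER4P3 had 4.7% in D1240A and 0% in F1295A, and LOC100507393 0% and 13.3%. MTCO3P34 on chromosome 22, a nuclear copy of a mitochondrial gene, was covered over 100% in each of the 4 lists, although the window around it was not.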

How the data were processed

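H3K36me2, H3K27me3 and H3K27ac were mapped by ChIPmentation in 24 immunoprecipitates with 4 inputs, after fixation in 0.8% formaldehyde, sonication and tagmentation per the labels' protocols. Trimming with Trimmomatic 0.36, quality checks with FastQC 0.11.4, the aligner Bowtie2 2.4.5, the GRCh38 build and peak calling by MACS2 2.2.7.1 stand in the submitters' processing notes. Peak lists were made, per the file headers, as follows: each of the 12 lists was called by the authors on both replicates together, from paired-end fragments, with a q limit of 0.05, no control, no local background and 1 fragment kept per position, and 61% to 87% of fragments were duplicates. The inputs were not used here.

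The deposited pileup is a coverage signal, the number of fragments at the summit, not scaled for depth. The deposited fold enrichment is that value over a constant of each list, and -log10 of the q-value, also deposited, ranks peaks within a list. A pileup was counted in a window only where its summit lies there. Since a list holds only peaks past its limit, a feature listed at 0 is not a measured absence. Each list was called against its own background, so a total level of a mark cannot be read from it.

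Peaks less than 1 kb apart were merged for window and gene coverage and not for the shared blocks or promoters. Without a genome, a chromosome ended at its last peak or gene. Genes came from RefSeq of GRCh38.p14, without 153 protein-coding genes placed on scaffolds. Families were assigned by symbol for 28 families. Exact binomial (Clopper-Pearson) intervals at 95% cover counting error only. With 1 list per group and mark no test was possible, and leaving out a replicate was not either.

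The windows, lists and limits were chosen with earlier results of these data known. Named genes are those with at least 25% of the body in the windows, up to 12 inside and 12 outside the shared blocks, and list members likewise. Also named are the 5 longest runs inside and outside, the 3 largest and 3 smallest gaps outside, and 3 windows nearest each limit. Others were chosen after their values were seen. Results under other settings, 3 of them added after seeing the data, are given in the closing section. The work used SciPy 1.17.1 and pandas 2.3.3 under Python 3.11.15, with matplotlib 3.10.9 for plots and numpy 2.4.6. The steps were tested on simulated data with windows planted in copies of the WT list.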

Additional observations from a re-analysis of the deposited data

How the results depend on the processing

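No paired analysis was possible because each list pools both replicates, and for the same reason no replicate could be left out. The count of 404 windows became 618 when each list was shortened to equal covered length, 983 in 5 kb windows, 170 in 20 kb windows, 1 with limits of 75% in WT and 25% in the others, and 0 when no peak base was allowed in the other lists. In these settings 374, 518, 103, 0 and 0 lay inside the shared blocks, and outside them 465 in 5 kb windows, 67 in 20 kb windows, 1 under the limits of 75% and 25% and 0 without other peak bases. Without merging, 387 lay inside and 112 outside, with merging within 3 kb 86 and 341, and with 25% in place of 50% 93 and 398. A block limit of 20% put 137 inside and 267 outside, and without the chromosome 3 stretch 110 remained outside. The share inside, 57.9%, was 77.6% without merging, 20.1% with 3 kb merging, 69.3% at -log10 q of at least 5, 18.9% at the 25% limit, 0% at 75% and 25%, 52.7% in 5 kb windows, 71.8% and 33.9% at block limits of 5% and 20%, and 66.5% without the chromosome 3 stretch. The share at least 50% under H3K27me3 in TKO, 72.5%, was 83.6% without merging, 43.6% with 3 kb merging and 58.3% at equal covered length. At the 25% limit the share was counted at 25% or more under H3K27me3 as well, and was 57.4%. At 50% it was 100% for the single window at 75% and 25%, 66.9% in 5 kb and 82.9% in 20 kb windows. In WT, 68.3% became 81.4%, 35.1%, 56.3%, 46.6%, 100%, 62.2% and 75.3% in the same settings, with 46.6% again counted at 25% or more under H3K27me3. It was 77.3% at -log10 q of at least 5 and 62.5% on a grid shifted by 5 kb. The 34 protein-coding genes became 20 without merging, 82 with 3 kb merging, 22 at -log10 q of at least 5, 66 at equal covered length, 109 at the 25% limit, 0 at 75% and 25% or without other peak bases, 117 in 5 kb and 12 in 20 kb windows. The share of them in multi-copy families, 32.4%, was 60% without merging, 17.1% with 3 kb merging and 66.7% in 20 kb windows. Shares could not be given where no window or gene was left. Blocks from merged peaks, a common minimum fold enrichment and the removal of the chromosome 3 stretch were chosen after seeing the data, and the first 2 moved none of these values beyond its limits. The causes of these shifts were not tested.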
